A study of Mus musculus with 38 samples.

Results

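The comparison described here sets 3 black rice libraries against 3 control libraries from the colon of mice in the Apc set of a study of black rice diets. The 6 libraries were chosen by their titles, which carry the letters Apc and M, out of 38 bulk RNA sequencing libraries in the series and 18 in the Apc table. Treatment was given as black rice or control, and the composition of neither feed was stated. WT libraries with the code M (3 libraries, given no treatment by the labels) were measured in the same table and are quoted beside both diets as a further level. Apc is the gene whose truncation starts intestinal adenomas in mice and people, but the labels named no Apc allele, strain, age, dose, feeding time or hour of collection. The libraries could come from separate mice or not, since the labels do not say, so that p-values measure only the spread between samples. In the Apc table that spread was estimated over all 18 libraries. The labels named the tissue as intestinal tract, and the columns of the count table were named Colon. The codes M and F were not explained. Xist, which coats the inactive X chromosome, stood between 0.124 and 0.644 CPM in the 6 libraries. The summed level of 4 Y-linked genes stood between 149.0 and 252.9 CPM.

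The colon lining is renewed from stem cells in crypts, which give rise to absorptive colonocytes, mucus-secreting goblet cells and chemosensory tuft cells. Colonocytes burn fatty acids, mainly butyrate made by bacteria, and PPAR alpha and the FOXO factors raise the genes of fat burning when food is short. Cells that sense low sterol release the SREBP factors, which raise the genes of cholesterol synthesis together. A circadian clock runs in the same cells and follows both the light cycle and the time of feeding.

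Expression is given as CPM, a gene's counts relative to the scaled total of its library, and a log2 fold change is black rice over control, with its standard error (SE). Total counts ran from 48.6 to 61.9 M reads per library. In 1 of the 6 libraries, control M replicate 3, the genes that mark position along the gut differed from the rest. Hoxb13, a marker of the distal colon, was at 0.759 CPM there against 121.9 to 305.3 CPM in the other 5 libraries, and the summed posterior Hox level was 34.6 CPM against 257.9 to 497.4 CPM. Car1, a carbonic anhydrase of the proximal colon, was at 7679 CPM there and between 152 and 1294 CPM elsewhere. The ileal bile acid binding protein Fabp6 was at 224 CPM in that library and at 1.91 to 7.16 CPM in the other 5, and the brush border enzyme Sis was at 72.7 CPM there against 0.612 to 1.77 CPM. The summed level of the small intestinal enterocyte list was 1356 CPM in that library and 412 to 867 CPM in the other 5. Lct, Slc2a2 and Apoa4 of that list were at or below 0.408 CPM in all 6. Its Spearman correlation with the other control libraries was 0.955 and 0.956, and the other controls correlated with each other at 0.980. Results are therefore given with control M replicate 3, and for part of them also without it. The part of gut position in the differences was not tested.

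Of 21624 genes tested with edgeR, 7 passed an adjusted p of 0.05, which is 0.0324% of them: 6 were higher and 1 was lower on black rice. At an unadjusted edgeR p under 0.05 there were 794 higher and 1052 lower genes. The median log2 fold change over all tested genes was -0.01. As a second description, free of a model, the 3 black rice values all lay above the 3 control values for 6.23% of genes and all below them for 6.79%. Without control M replicate 3 these shares were 14.8% and 17%, and 0 genes passed the edgeR threshold, while 2603 had an unadjusted p under 0.05. Leaving out any other of the 6 libraries left between 0 and 2 calls: 1, 2 and 1 without black rice replicates 1, 2 and 3, and 0 without control replicate 1 or 2. The 7 genes are a lipase, a phospholipase, a sterol enzyme, a clock repressor, a monoamine transporter, a FOXO-responsive gene and Fam221a, and the plot of the called genes shows every library.

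**Figure D1:**
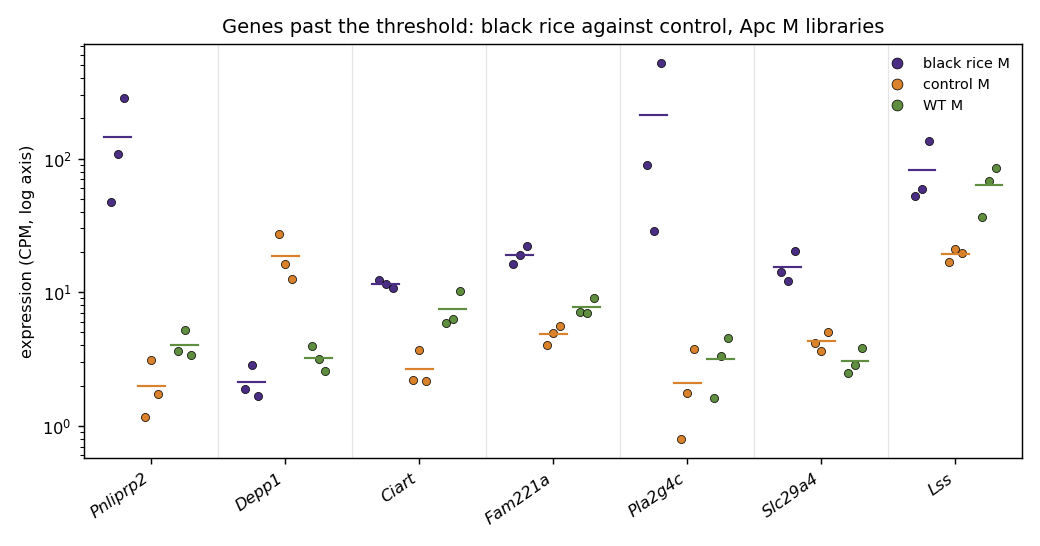
Expression in CPM (log axis) of the 7 genes past the edgeR threshold in the black rice, control and WT libraries coded M, 1 point per library and a bar at the mean of 3. No black rice point overlaps a control point, and for Depp1 and Lss the black rice points overlap the WT points.

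Among the 7 called genes, a lipase and a phospholipase gave the highest folds. Pnliprp2, a relative of pancreatic lipase that also cleaves the galactolipids of plants, stood at 47.2, 107 and 282 CPM in black rice replicates 1 to 3 and at 1.16, 3.10 and 1.72 CPM in the controls. The WT libraries were at 3.62, 5.17 and 3.39 CPM, so that black rice lay above both other groups. Pnliprp2 rose with a log2 fold change of 6.19 (SE 0.755, edgeR adjusted p = 0.0115). Without control M replicate 3 the value was 6.09, at an edgeR adjusted p of 0.0695. Pla2g4c, a cytosolic phospholipase A2 that frees fatty acids from membranes, was at 90.1, 28.6 and 521 CPM on black rice, at 0.791, 1.75 and 3.75 CPM in controls and at 1.61, 3.32 and 4.53 CPM in WT. It rose by 6.67 (SE 1.07, edgeR adjusted p = 0.0493), with black rice replicate 3 far above the other black rice libraries. Without control M replicate 3 the edgeR adjusted p was 0.166.

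The other genes of these families set the limits of that pattern. Clps, which encodes the lipase cofactor colipase, was at 91.4, 145 and 147 CPM on black rice against 14.6, 20.3 and 24.3 CPM in controls, with WT at 11.2, 45.1 and 33.7 CPM. Its groups did not overlap, and its log2 fold change of 2.70 (SE 0.486) had an edgeR adjusted p of 0.101. The other genes of the exocrine pancreas list were mostly near 0. Its 13 members below the filter on low counts, the trypsins, amylases and Pnlip among them, were each at or below 0.552 CPM in every library of the 6. Pla2g1b, the pancreatic phospholipase A2, was at 0, 1.54 and 0.594 CPM on black rice against 0.074, 0 and 0 CPM in controls, with overlap (log2 fold change 4.71, SE 1.56, edgeR adjusted p = 0.434). Cela1, an elastase, was at 82.4, 107 and 59.5 CPM against 180, 210 and 22.4 CPM, also with overlap. Of the 19 genes of this list only 6 passed the filter on low counts. Among 19 phospholipase A2 genes tested, 2 had black rice above control in every library, beside 6.23% of all genes: Pla2g4c and Pla2g12a (log2 fold change 0.29). The list's median was 0.23, or -0.01 without control M replicate 3. Pla2g2a, the secreted enzyme of Paneth and goblet cells, was at 13.2, 13.1 and 52.6 CPM against 10.6, 13.3 and 0.410 CPM.

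Depp1 was the single gene that fell past the threshold. It encodes a regulator of autophagy and is a known direct target of FOXO factors in fasting. Depp1 stood at 1.90, 2.86 and 1.68 CPM on black rice and at 27.1, 16.3 and 12.6 CPM in controls, with WT at 3.99, 3.16 and 2.55 CPM. The controls stood above both other groups, and the black rice libraries overlapped WT. The log2 fold change was -3.12 (SE 0.447, edgeR adjusted p = 0.0414), and without control M replicate 3 it was -3.34 at an edgeR adjusted p of 0.0513. In the list of 22 FOXO and fasting responsive genes, 18 had a log2 fold change below 0, with 5 apart lower, 1 apart higher and 1 called, beside 6.79%, 6.23% and 0.0324% of all genes. The median of that list was -0.23. Sgk1, a kinase that stabilises the epithelial sodium channel, stood at 131, 117 and 69.7 CPM on black rice and at 351, 323 and 313 CPM in controls (log2 fold change -1.63, SE 0.315, edgeR adjusted p = 0.112), so that its groups did not overlap. Scnn1b, a subunit of that channel, was at 2.14, 3.36 and 2.36 CPM against 12.95, 12.96 and 6.19 CPM, again without overlap (log2 fold change -2.03, edgeR adjusted p = 0.278). The channel's other listed subunits, Scnn1a and Scnn1g, were tested and were not apart lower. Pck1, the gluconeogenic enzyme, gave -0.64 with its groups apart, and the insulin receptor substrate Irs2 gave -0.60 with overlapping groups, both short of the threshold.

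Clock genes had opposite signs by phase. Ciart, a repressor in the clock's own feedback loop, was at 12.3, 11.6 and 10.8 CPM on black rice, at 2.19, 3.68 and 2.15 CPM in controls and at 5.86, 6.33 and 10.3 CPM in WT. The black rice libraries were tight and stood above both groups. Ciart rose by 2.11 (SE 0.328, edgeR adjusted p = 0.0493), or by 1.98 without control M replicate 3 at an edgeR adjusted p of 0.184. Of 13 genes that share the phase of Dbp, 12 had a log2 fold change above 0, with a median of 0.54. Of these 13, 7 were apart higher and 1 was called, beside 6.23% and 0.0324% of all genes. Dbp itself, a clock output factor, was at 36.1, 24.0 and 24.5 CPM against 4.73, 11.4 and 9.88 CPM, with WT at 23.0, 24.0 and 26.2 CPM. Its log2 fold change was 1.70 (SE 0.37) at an edgeR adjusted p of 0.173. Nr1d1, which encodes the repressor REV-ERB alpha, was at 57.0, 33.9 and 46.9 CPM against 18.4, 23.4 and 10.9 CPM. Tef and Hlf, the sister factors of Dbp, had log2 fold changes of 0.76 and 0.59 with groups apart. Without control M replicate 3, 10 of the 13 were apart higher, when the share of all genes apart higher was 14.8% in place of 6.23%.

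All 6 genes of the opposite phase had negative values, with a median of -0.92, and 4 were apart lower, beside 6.79% of all genes. Arntl, which encodes the activator BMAL1, was at 20.0, 14.5 and 9.88 CPM on black rice and at 71.5, 45.9 and 21.2 CPM in controls, with WT at 38.1, 21.8 and 11.9 CPM. Its groups did not overlap (log2 fold change -1.64, SE 0.412, edgeR adjusted p = 0.278). Npas2, a partner of BMAL1, was at 15.6, 8.03 and 7.79 CPM against 41.6, 19.4 and 12.96 CPM, where black rice replicate 1 passed control replicate 3. Nfil3, a repressor that binds the same sites as Dbp, gave -1.54 with its groups apart.

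**Figure D2:**
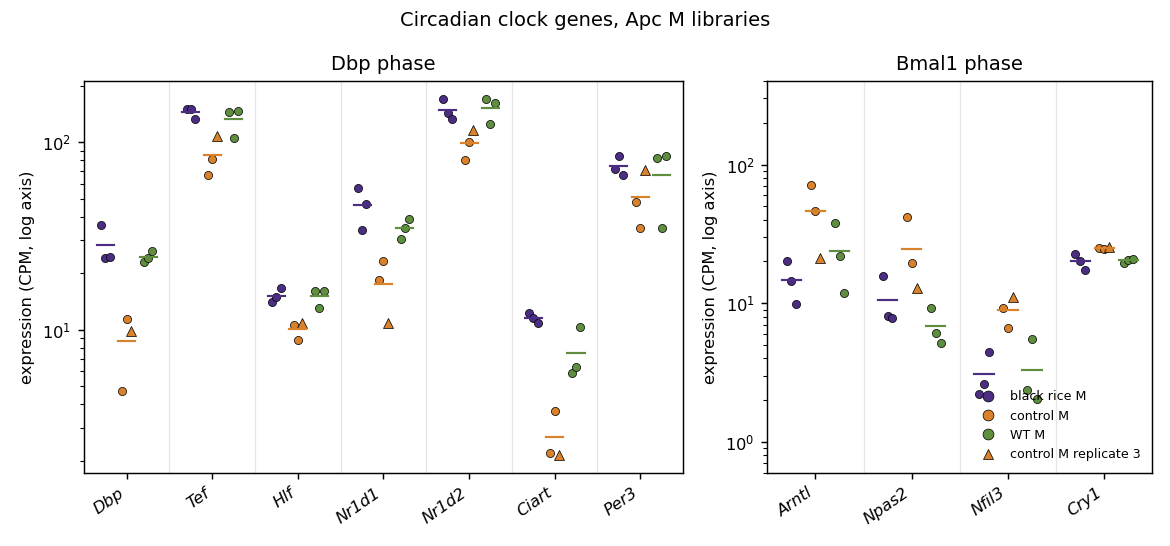
Expression in CPM (log axis) of 7 genes of the Dbp phase and 4 genes of the Bmal1 phase in the libraries coded M, 1 point per library, a bar at the mean of 3 and a triangle for control M replicate 3. Black rice points lie above the control points for Ciart, Dbp, Tef, Hlf, Nr1d1 and Nr1d2, and below them for Arntl, Nfil3 and Cry1.

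The promoters of these genes were read for the sites that the clock factors are known to bind, since members of the phase had values of the same sign. The E-box CACGTG, bound by BMAL1 with its partners, was searched on both strands in the 250 bases before each RefSeq start site of GRCm38.p6, as was the D-box TTANGTAA, bound by DBP, TEF and NFIL3. An E-box was held by 6.02% of all 32851 promoters, and 3 or more by 0.0609% of them. Of the 13 Dbp-phase genes 11 had a promoter in the table, and 4 of these held an E-box: Ciart, Tef, Per1 and Bhlhe41. Counted by promoter, 5 of the 13 promoters of these 11 genes held one, or 38.5%. The D-box was held by 2.06% of all promoters and by 1 of these 13 promoters, that of Per3. The stretches shown are those of Ciart, which passed the threshold, of Tef and Per1, whose groups were apart, and of Per3 for its D-boxes. The sites are in capitals, and each stretch runs 5′ to 3′ on the strand of the gene. A match is a description of letters and not a measured binding site.

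Ciart (chr3:95882229-95882378, minus strand, 3 E-boxes that begin 116, 58 and 44 bases before the start): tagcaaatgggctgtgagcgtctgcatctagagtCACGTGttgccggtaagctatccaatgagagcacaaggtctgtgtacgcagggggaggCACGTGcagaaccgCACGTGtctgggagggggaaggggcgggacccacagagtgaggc
Tef (chr15:81802503-81802602, plus strand, 1 E-box 127 bases before the start): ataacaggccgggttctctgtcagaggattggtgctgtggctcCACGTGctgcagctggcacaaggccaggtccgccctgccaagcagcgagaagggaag
Per1 (chr11:69098739-69098838, plus strand, 1 E-box 166 bases before the start): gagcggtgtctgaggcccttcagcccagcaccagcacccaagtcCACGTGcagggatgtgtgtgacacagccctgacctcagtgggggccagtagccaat
Per3 (chr4:151044801-151044900, minus strand, D-boxes 205 and 158 bases before the start): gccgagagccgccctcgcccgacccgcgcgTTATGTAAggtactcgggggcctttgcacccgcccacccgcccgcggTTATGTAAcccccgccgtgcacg

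Ciart, the gene of this list past the threshold, held 3 E-boxes. Per1, with 1, had a log2 fold change of 0.34 (groups apart by 52.76 against 52.72 CPM, edgeR adjusted p = 0.694). Per3 gave 0.54 with groups overlapping. Whether the number of sites bears on the fold change was not tested. Bhlhe41, a repressor of the loop, had a log2 fold change of 0.12 with groups overlapping. Dbp and Nr1d1 held neither motif in this window, which says nothing of sites elsewhere.

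Cholesterol synthesis genes had higher values along most of the pathway, and 1 of them passed the threshold. Lss, lanosterol synthase, which closes the sterol rings, was at 52.7, 58.8 and 136 CPM on black rice, at 16.9, 20.9 and 19.7 CPM in controls and at 36.7, 68.0 and 85.6 CPM in WT. Here the controls stood below both other groups, and black rice overlapped WT. Lss rose by 2.10 (SE 0.341, edgeR adjusted p = 0.0493), and by 2.12 without control M replicate 3 at an edgeR adjusted p of 0.184. Of 21 genes of the pathway 20 had a log2 fold change above 0 and 13 were apart higher, beside 6.23% of all genes. Of the 21, 1 was called by edgeR, against 12 by DESeq2 and 0 by limma-voom. Over all genes edgeR called 7, DESeq2 145 and limma-voom 10. The median was 1.32, or 1.24 without control M replicate 3, when 13 were again apart higher, beside 14.8% of all genes. Without black rice replicate 3 the median was 0.85. Ebp, a sterol isomerase, was the exception at -0.03.

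Single steps show the range. Fdps, which makes farnesyl diphosphate, was at 14.6, 14.0 and 27.4 CPM against 3.83, 6.47 and 2.79 CPM (log2 fold change 2.10, SE 0.41, edgeR adjusted p = 0.115), with groups apart. Idi1, Cyp51, Hmgcs1, Sqle and Msmo1 gave 2.08, 1.76, 1.72, 1.67 and 1.58, each with groups apart. Nsdhl, Sc5d and Dhcr7 gave smaller values of 0.70, 0.41 and 0.40, with overlapping groups. Black rice replicate 3 was the highest of the 6 libraries for the summed pathway, at 3198 CPM against 1785 and 1427 CPM in black rice replicates 1 and 2. The controls summed to 873, 1193 and 752 CPM, below every black rice library. The WT libraries summed to 1445, 2255 and 2172 CPM. For 14 of the 21 genes the controls lay below all WT libraries, against 2.62% of all genes. That comparison shares its control libraries with the diet comparison.

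The promoter of Hmgcs1, the first committed step, is shown because it holds the 1 match in the pathway to the sterol element TCACNCCAC, searched on both strands in the same 250 bases. Of the 21 genes 16 had a promoter in the table, with 19 promoters between them, and 1.05% of all promoters held a match.

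Hmgcs1 (chr13:119690166-119690265, plus strand, 1 element 137 bases before the start, in capitals): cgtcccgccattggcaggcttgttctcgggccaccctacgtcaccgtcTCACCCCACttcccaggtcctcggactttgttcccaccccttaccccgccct

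Genes around the pathway, 20 of sterol sensing, uptake and efflux, had values of both signs, 6 above 0 and 14 below 0. Insig1 and Stard4, both raised by SREBP2, gave 1.11 and 0.50, and Srebf2 itself 0.44, each with groups apart. For Insig1 (80.3 against 80.2 CPM) and Srebf2 (129.7 against 129.6 CPM) the nearest libraries of the groups all but touched. Some genes of sterol overload had the other sign, with groups apart lower. Among them were the oxysterol receptor Nr1h3 at -1.004, the efflux pump Abca1 at -0.57, Abcg5 at -3.53, the ubiquitin ligase Mylip at -0.48 and Apoe at -0.97. Of the 20 genes of sensing, uptake and efflux 6 were apart higher and 8 apart lower, beside 6.23% and 6.79% of all genes, and 0 were called by edgeR. The median of this mixed list was -0.26, and 0.06 without control M replicate 3. In fatty acid synthesis 13 of 18 genes had values above 0, with 6 apart higher, beside 6.23% of all genes, and a median of 0.44. Srebf1 gave 0.50, Fasn, fatty acid synthase, 0.85 and the desaturase Scd2 1.08, with groups apart and none past the threshold.

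**Figure D3:**
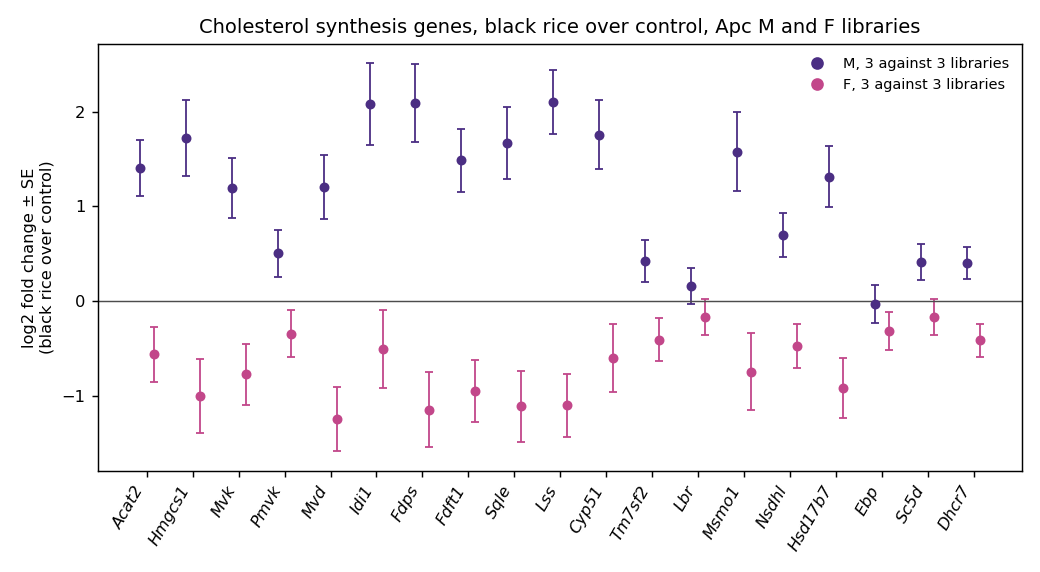
Log2 fold change (black rice over control) with its SE for 19 of the 21 cholesterol synthesis genes in the M libraries and, for comparison, in the F libraries of the same table, 3 against 3 in each. The M values lie above 0 for each gene drawn except Ebp, and the F values lie below 0 for each gene drawn.

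A further pair of genes passed the threshold outside these groups. Slc29a4, the plasma membrane monoamine transporter, was at 14.1, 12.2 and 20.2 CPM on black rice, at 4.18, 3.64 and 5.07 CPM in controls and at 2.50, 2.87 and 3.80 CPM in WT. It rose by 1.85 (SE 0.299, edgeR adjusted p = 0.0493), with black rice above both groups. Of the 5 other nucleoside transporter genes tested none had groups apart. Fam221a was at 16.3, 19.0 and 22.1 CPM against 3.99, 4.95 and 5.56 CPM, with WT at 7.08, 6.98 and 8.99 CPM. It rose by 1.98 (SE 0.314, edgeR adjusted p = 0.0493), and again black rice stood above WT. Both had an edgeR adjusted p of 0.166 without control M replicate 3.

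Of the next genes by p, which did not pass, Nucb2, the precursor of the satiety peptide nesfatin, came first: 31.2, 33.0 and 63.5 CPM against 11.1, 15.3 and 13.5 CPM (log2 fold change 1.68, SE 0.287, edgeR adjusted p = 0.0684). The other higher genes were the adhesion molecule Kirrel3 at 2.39, the nuclear transport receptor Ranbp17 at 1.72, the LIM protein Fhl2 at 0.72 and the acyl-CoA thioesterase Acot11 at 0.58. Fhl2 and Acot11 had small but tight differences: Fhl2 was at 24.3, 30.6 and 28.6 CPM against 16.2, 17.3 and 17.0 CPM. The lower genes were Tmem174 at -2.23, Acot1 at -2.03, the apolipoprotein Apoc1 at -2.01, the long-chain fatty acid receptor Ffar4 at -1.45, Rps4l at -1.30, the melanin-concentrating hormone receptor Mchr1 at -1.03, the actin regulator Rflnb at -0.89, the BMP antagonist Nbl1 at -0.79, Ggact at -0.74, Rftn2 at -0.72, Tmem143 at -0.69 and the corepressor Irf2bp2 at -0.63. Ffar4, which senses dietary fat in enteroendocrine and other cells, was at 10.4, 7.67 and 8.73 CPM against 21.6, 23.8 and 28.0 CPM. All of these had groups apart. Acot1 has close copies, among them Acot2, between which the authors' counting could split reads.

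Fatty acid oxidation genes had lower values, although none passed with edgeR, DESeq2 or limma-voom. All 22 had a log2 fold change below 0 and 11 were apart lower, beside 6.79% of all genes. The median was -0.59, against -0.01 for all genes. Cpt1a, the carnitine transferase that admits long-chain fatty acids to mitochondria, was at 174, 135 and 135 CPM on black rice, at 250, 258 and 392 CPM in controls and at 182, 243 and 136 CPM in WT. Its log2 fold change was -1.02 (SE 0.292, edgeR adjusted p = 0.339), or -0.78 without control M replicate 3. Slc25a20, the carnitine carrier, was at 89.7, 38.5 and 53.6 CPM against 149, 137 and 167 CPM (-1.32). Hadhb and Acadl, enzymes of the oxidation cycle, gave -0.67 and -0.72 with groups apart. Without control M replicate 3, 11 of the 22 were again apart lower, beside 17% of all genes, and the median was -0.41.

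PPAR alpha targets leaned on that library more. Of 19 tested genes 14 had values below 0 and 9 were apart lower, beside 6.79% of all genes. Their median of -1.25 became -0.72 without control M replicate 3. Angptl4, an inhibitor of lipoprotein lipase that rises in fasting, was at 0.856, 2.44 and 0.942 CPM against 6.75, 10.1 and 53.0 CPM, where the highest value is control replicate 3. Its log2 fold change of -4.04 became -2.58 without that library. Pdk4, which turns cells from glucose to fat burning, was at 5.93, 5.15 and 5.57 CPM against 18.5, 9.52 and 82.2 CPM, and its -2.72 became -1.33. Plin2 on lipid droplets and the fatty acid carrier Cd36 gave -0.78 and -1.49 with groups apart. Oxidative phosphorylation genes had a median of -0.15 over 27, with 24 below 0 and 2 apart lower, beside 6.79% of all genes.

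**Figure D4:**
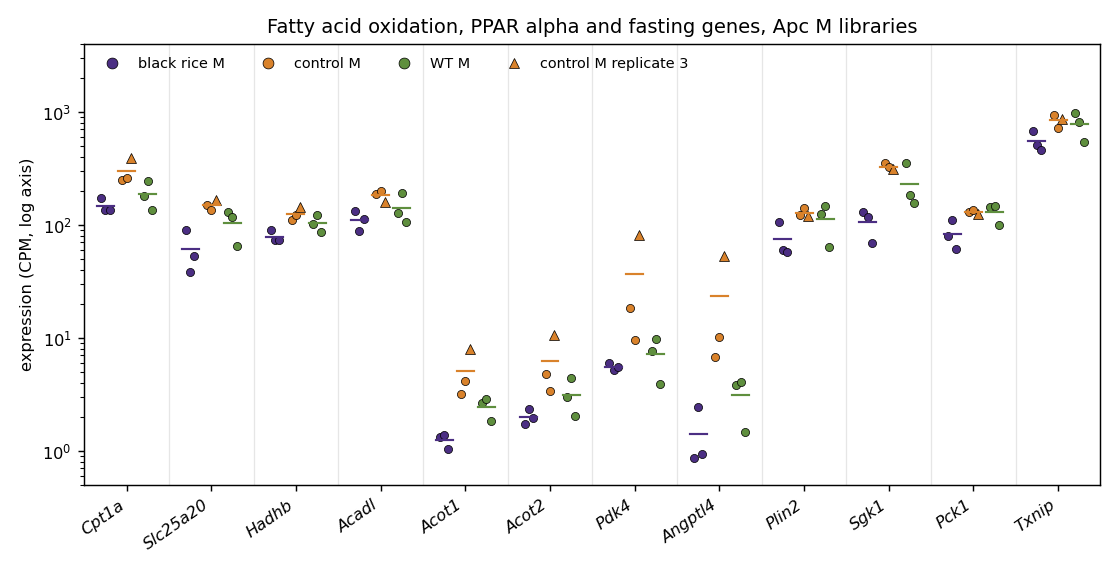
Expression in CPM (log axis) of 12 genes of fatty acid oxidation, PPAR alpha targets and fasting in the libraries coded M, 1 point per library, a bar at the mean of 3 and a triangle for control M replicate 3. Black rice points lie below the control points for all 12 genes, and the triangle is far above the other controls for Pdk4 (82.2 CPM) and Angptl4 (53.0 CPM).

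Goblet cell products differed widely, with 0 of 10 genes called by edgeR, 4 by DESeq2 and 0 by limma-voom. The calls of these tools over all genes were 7, 145 and 10. In bulk samples fewer cells of a type and less RNA per cell cannot be told apart. Of 10 goblet markers 8 had values above 0 and 6 were apart higher, beside 6.23% of all genes, with a median of 1.65. Without control M replicate 3 the median was 1.91, with 8 apart higher and 2 apart lower, beside 14.8% and 17% of all genes. Retnlb, a secreted bactericidal protein of goblet cells, was at 1637, 1438 and 3306 CPM on black rice, at 2.41, 58.0 and 16.3 CPM in controls and at 7.36, 106 and 207 CPM in WT. Its log2 fold change of 6.38 had an SE of 2.05 and an edgeR adjusted p of 0.407. Every black rice library was above every other library coded M, but the controls also differed widely among themselves. Ang4, an antimicrobial ribonuclease, was at 1816, 3574 and 5748 CPM against 0.644, 272 and 14.6 CPM, and the lectin Itln1 at 69.2, 114 and 92.1 CPM against 0.773, 4.25 and 5.50 CPM. Both had groups apart, with log2 fold changes of 5.28 and 4.71. Ang4 has close copies among the angiogenins that could share reads.

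The mucus genes did not all follow. Clca1, a protease of the mucus layer, was at 15397, 29973 and 40400 CPM against 1422, 7509 and 1566 CPM, and Fcgbp, which binds mucins, at 5701, 5487 and 6511 CPM against 957, 2194 and 845 CPM. Muc2, the mucin itself, was at 11408, 13550 and 11362 CPM against 1659, 3019 and 11737 CPM, so that control replicate 3 overlapped. Tff3 and Zg16 had values of -0.55 and -0.79 with overlapping groups. The goblet factor Spdef was at 113, 111 and 89.5 CPM against 29.8, 52.2 and 117 CPM. Defensins of Paneth cells were at or below 1.29 CPM in all 6 libraries.

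Tuft cell genes showed the same sign with smaller values. All 9 tested markers were above 0 and 7 were apart higher, beside 6.23% of all genes, with a median of 0.95. The summed level was 87.2, 83.8 and 99.5 CPM on black rice and 19.1, 48.3 and 69.8 CPM in controls, with WT at 40.3, 73.0 and 74.0 CPM. Dclk1, the common tuft cell marker, gave 0.88 and Alox5, which starts leukotriene synthesis, 1.43, with edgeR adjusted p values of 0.422 and 0.384. Colonocyte genes went both ways: of 16, 2 were apart higher, among them the sodium exchanger Slc9a3 at 1.497, and 2 apart lower, among them the sulphate transporter Slc26a2 at -0.71. Over all genes 6.23% were apart higher and 6.79% apart lower.

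Wnt pathway and stem cell genes were close to all genes, with 12 of 24 above 0 and a median of 0.01, which was below 0 without any 1 of black rice replicates 2 and 3 and control replicates 1 and 2. Apc was at 122, 154 and 166 CPM on black rice and at 136, 106 and 184 CPM in controls (log2 fold change 0.06, SE 0.198). Lgr5, the stem cell receptor, gave 0.05 (SE 0.277) and Axin2, a feedback target, 0.03 (SE 0.197), with overlapping groups. Changes of that size were not detectable with 3 against 3 libraries. All 28 cell cycle genes had values above 0, with a median of 0.43. Apart higher were 4, Ccne1, Ccne2, Mcm4 and Plk1, beside 6.23% of all genes. Mki67, the proliferation marker, was at 173, 131 and 239 CPM against 118, 137 and 159 CPM, with overlap (0.39, SE 0.377, edgeR adjusted p = 0.809).

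Genes of response to diet compounds showed no shared higher values. Of 11 tested aryl hydrocarbon receptor genes 1 was apart higher, Lpar5, beside 6.23% of all genes, and the median was -0.28. Cyp1a1, the most responsive target, was at or below 0.246 CPM in all 6 libraries, and Ahr was at 20.0, 23.0 and 24.1 CPM against 25.1, 22.0 and 22.0 CPM. All 25 genes of xenobiotic metabolism had values below 0, with a median of -0.69, but 4 were apart lower, Gsta4, Gstt1, Sult1a1 and Ces2a, which is 4 of 25 beside 6.79% of all genes. Without control M replicate 3 the median was -0.55, with 4 apart higher and 8 apart lower, beside 14.8% and 17% of all genes. That library was far above the others for Cyp2c55 (2111 CPM against 46.4 to 427 CPM).

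Interferon genes rested on 1 library. Of 20 genes 17 had values above 0, with a median of 0.75 that became -0.59 without black rice replicate 1. Ifit1, an antiviral sensor, was at 316, 7.92 and 20.7 CPM against 8.39, 47.8 and 58.1 CPM. Only Mx1 had groups apart, at 62.7, 24.6 and 21.9 CPM against 3.42, 9.13 and 10.6 CPM. In the unfolded protein response 4 of 14 genes were apart higher and 1 apart lower, beside 6.23% and 6.79% of all genes. Among the higher genes was the chaperone Hspa5, at 478, 655 and 790 CPM against 258, 378 and 372 CPM (log2 fold change 0.93, edgeR adjusted p = 0.394).

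Markers of other cell types were measured beside these groups. All 5 erythroid genes were apart lower, beside 6.79% of all genes, with a median of -1.44. Their summed level was 35.2, 38.9 and 44.8 CPM on black rice against 57.7, 148 and 123 CPM in controls and 18.7, 45.5 and 7.57 CPM in WT. Smooth muscle genes were all 10 above 0, with a median of 0.49 and 1 apart higher, beside 6.23% of all genes. Their sums were 3453 to 5980 CPM on black rice against 2717 to 4089 CPM in controls. Macrophage genes were all 12 below 0 (median -0.51) and T and NK cell genes 13 of 14 (median -0.73), with 0 apart in either list. Adipocyte genes had a median of -0.68, and Adipoq was at 1.51, 15.1 and 2.29 CPM against 7.93, 32.7 and 2.09 CPM. Hepatocyte genes had a median of -0.98, and Alb stood at or below 22.3 CPM in all 6 libraries. The part of these cell types in the gene groups above was not tested. When the smooth muscle level was entered as a covariate, edgeR called 1 gene, Pnliprp2.

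The F libraries of the same table and the libraries of the other tables share no sample with these 6. Black rice against control in the F libraries gave a negative value for all 21 cholesterol genes, with a median of -0.60 and 15 apart lower, against 11% of all genes. Lss was at 34.9, 26.6 and 20.9 CPM on black rice and at 59.7, 52.1 and 65.2 CPM in controls there, so that both the order and the control level differed from M. The difference of the diet effects, M minus F, was 3.21 for Lss (SE 0.474), at an edgeR adjusted p of 0.0653. No gene passed in that test of the difference, in which 1923 genes had an unadjusted edgeR p under 0.05. In the other direction, Depp1 gave -3.67 at an edgeR adjusted p of 0.127. Clock genes in the F libraries had medians of 0.49 (Dbp phase) and 0.02 (Bmal1 phase). Ciart gave 0.11 there (SE 0.317), with overlapping groups.

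In the libraries titled AOM and coded M (3 against 3) and in the third table, whose titles carry neither a model name nor a code (4 against 4), 0 of 21192 and 0 of 20831 genes passed with edgeR. At an unadjusted edgeR p under 0.05 there were 1789 and 1653. The name of the third table carries the letters FMT, which the titles do not explain. Its black rice and control groups may therefore not match the diets of the Apc table. The AOM fit shares its estimate of spread with a black rice library coded F, replicate 3, of 5.37 M reads, whose summed hepatocyte markers reached 435600 CPM. Without that library the AOM count was 3019, and it ran from 589 without control M replicate 3 through 682 and 734 without black rice M replicates 2 and 1 to 2988 without black rice M replicate 3, with 0 calls in each case. Ciart had values of 1.19 (SE 0.342) and 1.18 (SE 0.398), neither past the threshold, with AOM values of 18.2, 18.6 and 15.2 CPM against 10.7, 4.61 and 7.56 CPM and no overlap. In the third table the Ciart groups overlapped. Dbp-phase genes had medians of 0.54 and 0.74 there, and Bmal1-phase genes -0.82 and -0.66. Pnliprp2 and Pla2g4c had values of the other sign, at -4.17 and -0.79 in AOM and at -1.15 and -4.02 in the third table. In AOM, Pnliprp2 was at 1.09, 1.17 and 1.68 CPM on black rice against 11.9, 1.64 and 57.9 CPM in controls, with overlap. Cholesterol synthesis had medians of -0.15 and -0.19, fatty acid oxidation 0.46 and -0.02, and goblet genes -0.32 and -0.01. Tuft cell genes had 1.34 in AOM and -0.33 in the third table. The medians over all genes were -0.04 and 0.01. No difference between tables was tested.

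**Figure D5:**
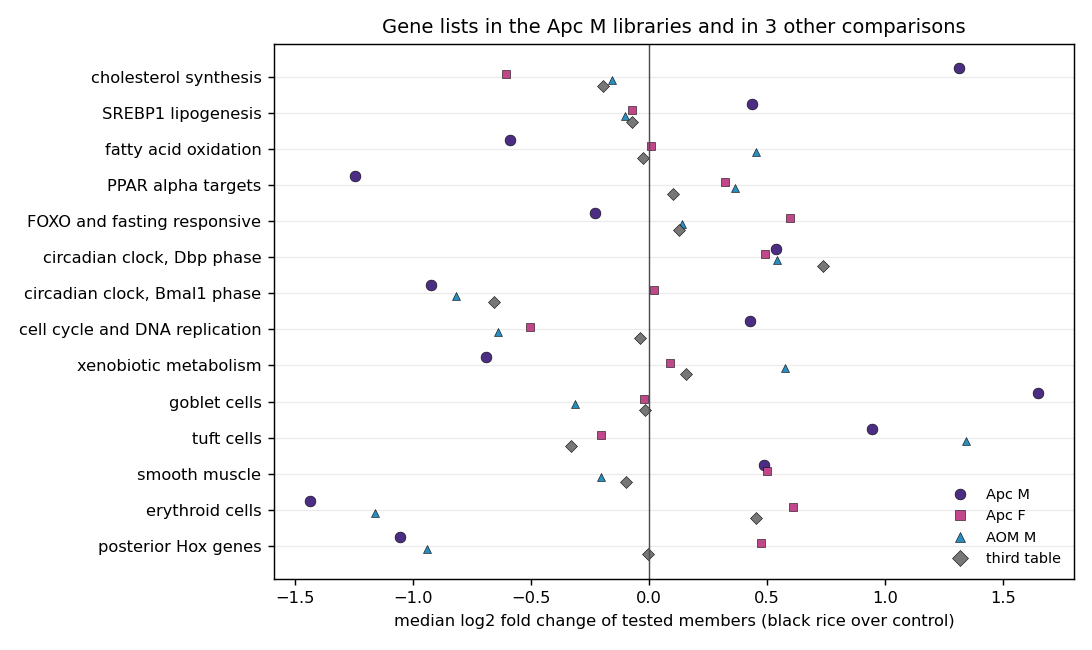
Median log2 fold change (black rice over control) of the tested members of 14 gene lists in the Apc M libraries and in the Apc F and AOM M comparisons and the third table, which share no library with each other. Medians of the Dbp-phase list lie between 0.49 and 0.74 in all 4 comparisons. The Bmal1-phase median is 0.02 in Apc F and below 0 in the others. The cholesterol median is above 0 in Apc M alone.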

How the data were processed

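The deposited tables hold raw read counts per gene as the authors made them. Per the submitters' processing notes, reads were handled with FastQC, fastp, HISAT2, SAMtools and featureCounts on GRCm39. The Apc table carries no command, while featureCounts 2.0.1 on Ensembl 104 made the other tables, per the file headers. Symbols were matched for 52083 of 55416 gene IDs, and 3333 had none.

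Counts were filtered with filterByExpr, scaled by TMM and fitted with edgeR 4.0.16 in R 4.3.3 over all 18 Apc libraries in 6 groups, with a quasi-likelihood F test and Benjamini-Hochberg adjustment at 0.05 over all 21624 genes. Other tables were fitted separately in the same way. DESeq2 1.42.0 and limma 3.58.1 were alternatives, with other scalings, filters, covariates and left-out libraries. The procedure was tested on simulated data. No 2 of the 6 libraries held identical counts. Reads without molecular identifiers are not independent molecules.

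The 41 lists (22 of pathways, 19 of cell types) and the comparison were chosen with earlier results of these data known. Named genes were those called, the next by p up to 15 higher and 15 lower whose average log2 CPM was 0 or more, up to 4 members of each pathway list, a few fixed genes and the top genes of M minus F. Other list members named were chosen after their values were seen. Reported as apart are genes whose groups do not overlap. Promoter sequences are RefSeq's, build GRCm38.p6, and none of the counts rest on that build. A few genes are not reported here by name, although they are counted in their lists.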

Additional observations from a re-analysis of the deposited data

Results flagged for a closer look

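The 7 called genes were examined for single libraries far from their group in both groups of 4 libraries of the third table, which makes 14 sets of values, where chance would flag about 1 in 20. Fam221a stood at 5.51 CPM in 1 black rice library against 4.76 to 4.86 CPM in the others. Pla2g4c stood at 200.13 CPM in 1 control library against 9.56 to 12.9 CPM in the others. Pla2g4c was also below every control in all 4 black rice libraries of that table, with a log2 fold change of -4.02 (SE 1.06, edgeR adjusted p = 0.51), whereas every black rice library was above every control in the Apc M libraries. The difference between these tables was not tested.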

How the results depend on the processing

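The count of 7 genes called by edgeR in the Apc M libraries became 145 with DESeq2, 16 with no filter on low counts, 1 with the smooth muscle level as a covariate, 0 when only the compared groups were fitted and 12 with the posterior Hox level as a covariate, an alternative chosen after seeing the data. It was 8 to 10 with other scalings, a stricter filter or limma-voom. The 7 genes were all among the calls of DESeq2, both scalings, both filters and the Hox covariate, while limma-voom lost Lss and Pla2g4c. Leaving out 1 library gave 0 to 2 calls. With the replicate number as a block there were 0 calls. Same-numbered libraries did not deviate together (correlations -0.09, -0.17 and -0.02). With 3 libraries a group these correlations cannot settle whether the numbers mark a pairing. For M minus F, 0 calls became 103 with DESeq2, 19 with limma-voom and 6 with no filter, and 0 to 7 with 1 library left out (7 without black rice F replicate 1). The AOM M count of 0 became 58 with DESeq2. The third table's count of 0 became 114 with DESeq2, 2 with limma-voom and 0 to 1 with 1 library left out (1 without control replicate 2). The cause of these shifts was not tested. For the 30 top genes no direction reversed in 480 repeats, while a call was lost in 60 of the repeats and gained in 39. These genes were picked by p from the same libraries and had groups apart, so that a kept direction says little. Of 410 repeated list medians 387 kept their sign and 23 did not, among them interferon, MHC class II, immediate early and pancreatic lipase genes. Other scalings moved the median of all genes from -0.01 to 0.01 at most. With 3 libraries a group, the number of libraries limits precision.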
